A study of Rattus norvegicus with 8 samples.

Results

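The genes described here encode the potassium channel subunits of the rat whose symbols start with Kcn, other than the vascular channel genes Kcna5, Kcnma1, Kcnmb1 and Kcnj8. Within that family every measured gene was taken by its symbol, whatever its values. Of the 14506 genes measured with a single symbol, 83 start with Kcn, and 79 remained without those 4. Transcripts were measured on 8 Affymetrix Rat Gene 1.0 ST arrays, 2 for each of 4 groups, namely BN DA, BN aorta, F344 DA and F344 aorta. BN is the Brown-Norway rat, F344 the Fischer344 rat and DA the ductus arteriosus. The ductus is the fetal vessel between the pulmonary artery and the aorta, which closes after birth, and BN is an inbred strain that has been used as a model of a ductus that fails to close. All animals were full-term neonates taken 1 h after birth, with no treatment given in the labels. RNA came from pooled tissues, and the number of animals in a pool was not given in the sources used here. Because the labels do not say that the 2 arrays of a group came from separate litters or pools, the p-values reflect no more than the spread of these arrays, which may be technical.

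Potassium channels let potassium ions leave a cell, which makes the inside of the cell more negative and keeps voltage-gated calcium channels shut. In smooth muscle their opening relaxes the vessel and their closing constricts it, and the constriction of the ductus by oxygen at birth is known to involve closing of voltage-gated potassium channels. Pore-forming subunits fall into voltage-gated families, inward rectifiers, tandem-pore leak channels and channels gated by calcium or sodium, and auxiliary subunits alter their gating and traffic.

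Values are log2 signals after RMA, so a difference of 1 is a 2-fold difference, and the median of all values over all probe sets and arrays was 7.01. A probe set above this median is called bright here, and signals of different probe sets are not compared with each other as levels. Of the 79 genes, 28 (35.4%) had a mean over the 8 arrays above the median, against 58.6% of all 14506 genes, and 19 were above it on all 8 arrays. By family, the bright genes were 6 of 15 auxiliary subunit genes (Kcnab1, Kcne3, Kcne4, Kcne5, Kcnip3 and Kcnmb4), 4 of 5 genes of calcium- and sodium-activated channels (Kcnn1, Kcnn3, Kcnn4 and Kcnt2) and 2 of 3 KCNQ genes (Kcnq1 and Kcnq5). They also held 5 of 11 tandem-pore genes (Kcnk3, Kcnk6, Kcnk12, Kcnk13 and Kcnk18), 4 of 13 voltage-gated Kv genes (Kcna2, Kcna3, Kcnd1 and Kcnd3) and 4 of 10 genes of modifier Kv subunits, which conduct only together with other Kv subunits (Kcng1, Kcng2, Kcng4 and Kcnv2). Of the EAG, ERG and ELK genes 1 of 8 was bright, Kcnh2, and of the inward rectifiers 2 of 14 were, Kcnj12 and Kcnj14. Just above the median lay Kcnk18, Kcnq5 and Kcna2 (means of 7.05, 7.03 and 7.01), and just below it Kcnj2, Kcnh3 and Kcnk4 (6.85, 6.85 and 6.77). Kcnd2 exceeded the median only in the mean of the BN DA arrays.

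Arrays and tissues were examined before the comparisons. All 8 smooth muscle markers, 7 of 7 endothelial markers and 6 of 6 adventitial fibroblast markers measured were bright. None of the 8 neuronal or 3 brown fat markers measured was. Bright too were 5 of 5 pericyte, 4 of 4 erythroid, 5 of 6 macrophage and 4 of 8 cardiomyocyte markers. So were 2 of 5 Schwann and glial, 2 of 4 skeletal muscle, 2 of 6 epithelial and 1 of 6 lymphocyte markers. Since 58.6% of all genes were bright, brightness does not tell cells of the vessel wall from others. In these bulk samples, fewer cells of a type and less RNA per cell cannot be told apart. The 2 BN DA arrays differed more from each other than those of other groups, with an SD of the replicate difference over all genes of 0.349, against 0.196 to 0.258. The mean of the 6 lymphocyte markers measured was 7.3 on BN DA replicate 1, against 6 to 6.11 on the other 7 arrays. Replicate 1 exceeded replicate 2 in erythroid markers (4 measured) in each of the 4 groups, with means of 10.48 and 8.54 in BN DA, 9.77 and 8.6 in BN aorta, 9.82 and 8.45 in F344 DA and 9.12 and 8.07 in F344 aorta. Where leaving out either BN DA array ended a call of a named gene, this is said beside it.

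DA and aorta were compared first with the strains averaged, which uses all 8 arrays and asks which channel genes mark either vessel. Of the 28 bright genes, 3 rose in DA (Kcne5, Kcnq5 and Kcnn3) and 5 fell (Kcnq1, Kcnk6, Kcnab1, Kcnt2 and Kcnmb4). Calls required an adjusted p under 0.05 in limma (Benjamini-Hochberg, over all 14506 genes). By that rule 28.6% of the bright channel genes were called, against 13% of all bright genes, of which 3.14% rose and 9.85% fell. Kcnq5, with a mean of 7.03, passed the median only through its DA arrays. Its rise in DA thus helped to place it among the bright genes, and its part in this share is no separate support. Over all 79 genes 8 rose and 5 fell, a share of 16.5%, against 16.6% of all genes tested (10.1% higher and 6.47% lower), so that the genes as a whole were called about as often as any others. Without single arrays, between 5 and 9 bright genes were called.

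**Figure D1:**
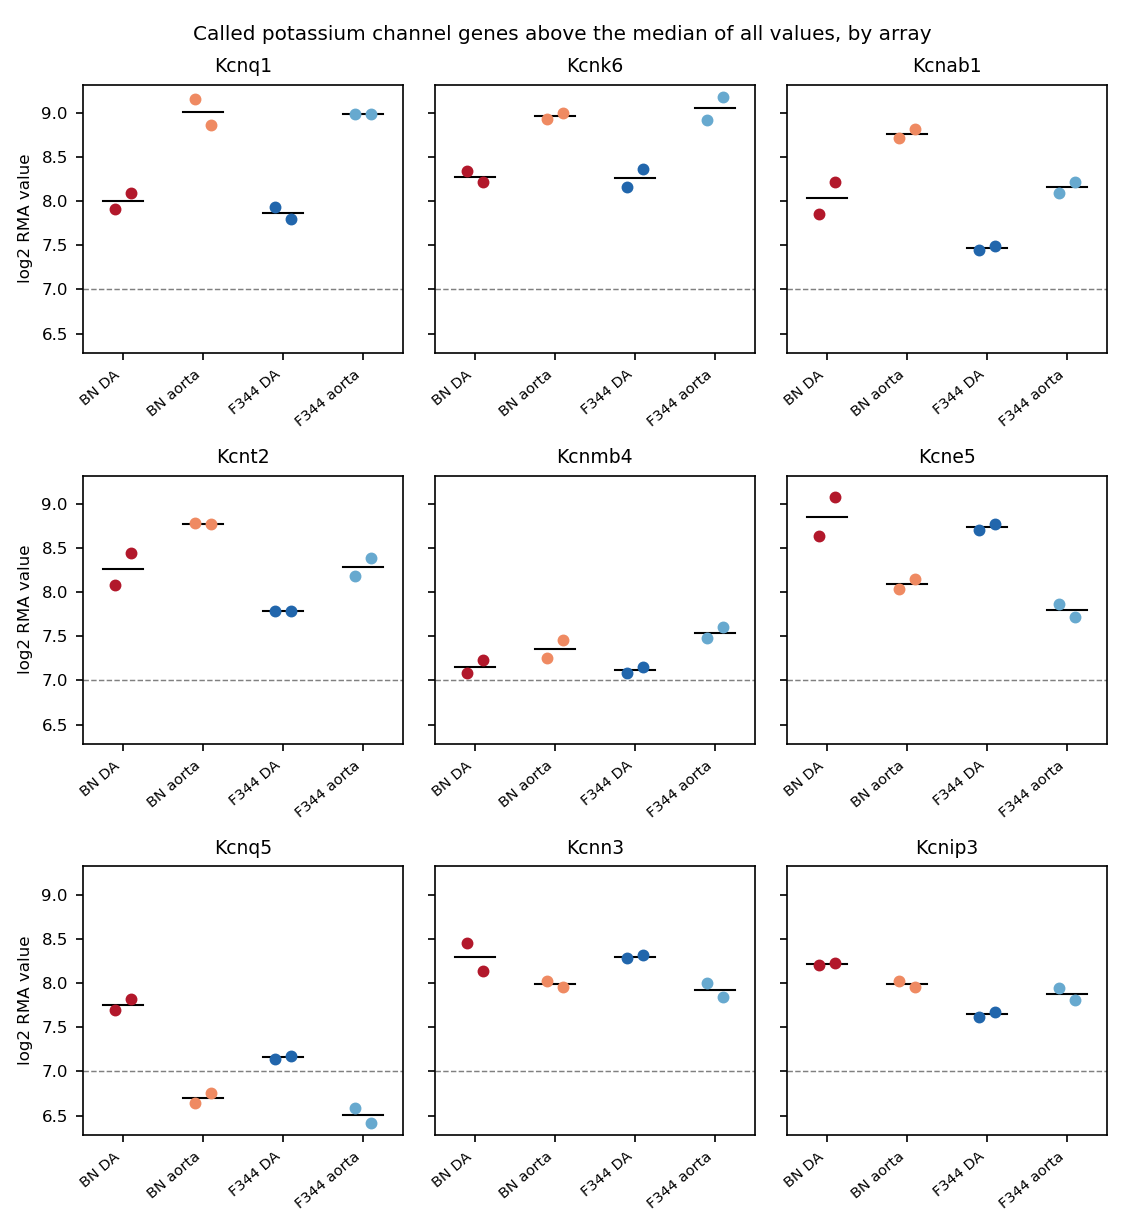
Log2 RMA value of the 9 bright channel genes called in at least 1 comparison, on each array of the 4 groups (points), with the group mean (black line) and the median of all values (dashed). Kcnq1, Kcnk6 and Kcnab1 lie lower in DA than in aorta in both strains, Kcne5 and Kcnq5 lie higher, and Kcnab1 and Kcnt2 lie higher in BN than in F344 in both vessels.

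The KCNQ genes, which encode slowly opening voltage-gated channels that are active near the resting potential, moved in opposite directions. Kcnq1 had 7.91 and 8.09 in BN DA, against 9.15 and 8.86 in BN aorta, and 7.93 and 7.80 in F344 DA, against 8.99 and 8.98 in F344 aorta (Entrez 84020). No DA array reached any aorta array in either strain. The difference was -1.06 ± 0.10 on the log2 scale with the strains averaged (SE, limma adjusted p = 0.000323), and -1 ± 0.14 in BN (adjusted p = 0.012) and -1.12 ± 0.14 in F344 (adjusted p = 0.00159) taken apart, so Kcnq1 was 2.01-fold and 2.18-fold lower in DA. Kcnq5, whose product is found in vascular smooth muscle, had 7.69 and 7.82 in BN DA, against 6.64 and 6.76 in BN aorta, and 7.14 and 7.18 in F344 DA, against 6.59 and 6.42 in F344 aorta (Entrez 259273). It was thus above the median of all values in DA and below it in aorta, in both strains. Its difference was 1.06 ± 0.13 in BN (SE, limma adjusted p = 0.00599) and 0.66 ± 0.13 in F344 (adjusted p = 0.00932), with 0.86 ± 0.09 for the average (adjusted p = 0.000518). The third KCNQ gene measured, Kcnq3, was dim and was not called, with a mean of 6.61. Without BN aorta replicate 1 the BN calls were lost for Kcnq1 (adjusted p = 0.121) and Kcnq5 (0.0844). The F344 call of Kcnq5 was lost without either F344 DA array or without F344 aorta replicate 2 (adjusted p between 0.0523 and 0.0901), and both averaged calls held whichever single array was left out.

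Auxiliary subunits also differed in both directions. Kcne5 encodes a small membrane protein of the KCNE family, which in expressed human channels inhibits currents of KCNQ1. It had 8.63 and 9.07 in BN DA, against 8.04 and 8.15 in BN aorta, and 8.70 and 8.77 in F344 DA, against 7.87 and 7.72 in F344 aorta (Entrez 681190). The vessels did not overlap in either strain, and Kcne5 was 1.80-fold higher in DA with the strains averaged (log2 difference 0.84 ± 0.11 SE, limma adjusted p = 0.00143). In F344 alone it rose by 0.94 ± 0.16 (adjusted p = 0.00527, and 0.0531 without F344 DA replicate 2), whereas in BN alone the difference of 0.75 ± 0.16 was not called (adjusted p = 0.0527, and 0.00885 without BN DA replicate 1). Kcnab1 encodes a beta subunit that binds the inner side of Kv channels and speeds their inactivation. Its values were 7.85 and 8.22 in BN DA, against 8.71 and 8.81 in BN aorta, and 7.45 and 7.49 in F344 DA, against 8.09 and 8.22 in F344 aorta (Entrez 29737). Each DA array lay below both aorta arrays of its strain, and the averaged difference was -0.70 ± 0.10 (SE, limma adjusted p = 0.00218). Within strains it was -0.72 ± 0.15 in BN (adjusted p = 0.0442) and -0.68 ± 0.15 in F344 (adjusted p = 0.0148). The F344 call was lost without any 1 of the 4 F344 arrays (adjusted p between 0.0709 and 0.111), the BN call was lost without any single array other than BN DA replicate 2 (0.0735 to 0.218), and the averaged call held whichever array was left out.

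Kcnmb4, which encodes a beta subunit of the large-conductance calcium-activated channel, had 7.08 and 7.23 in BN DA, against 7.25 and 7.46 in BN aorta, and 7.08 and 7.15 in F344 DA, against 7.48 and 7.60 in F344 aorta. Its averaged difference was small, -0.32 ± 0.09 (SE, limma adjusted p = 0.0461), and the call was lost without any single array other than BN DA replicate 2 (adjusted p between 0.059 and 0.168). Of the other bright auxiliary genes, Kcne3 and Kcne4 were not called in any comparison, and Kcnip3 is given with the strains below.

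Kcne5 and Kcnq5 are shown with Kcnab1 and Kcnt2 by the sequence around their starts, because the first pair rose and the second pair fell in DA. Each line gives 250 bases before to 50 bases after the start from RefSeq, build GRCr8, which is the genome of a BN rat, read 5′ to 3′ along the gene. The windows are chr9:31891232-31891531, minus strand for Kcnq5, chrX:110727800-110728099, minus strand for Kcne5, chr2:151614301-151614600, plus strand for Kcnab1 and chr13:54215057-54215356, plus strand for Kcnt2. Capitals mark matches, on either strand, to the GC box GGGCGG.
Kcnq5: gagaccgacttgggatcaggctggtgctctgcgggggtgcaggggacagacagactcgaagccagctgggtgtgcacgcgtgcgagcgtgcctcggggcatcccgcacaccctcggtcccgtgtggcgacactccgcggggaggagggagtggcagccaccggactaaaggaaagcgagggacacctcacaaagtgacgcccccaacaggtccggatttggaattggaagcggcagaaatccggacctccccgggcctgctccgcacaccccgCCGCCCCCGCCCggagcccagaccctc
Kcne5: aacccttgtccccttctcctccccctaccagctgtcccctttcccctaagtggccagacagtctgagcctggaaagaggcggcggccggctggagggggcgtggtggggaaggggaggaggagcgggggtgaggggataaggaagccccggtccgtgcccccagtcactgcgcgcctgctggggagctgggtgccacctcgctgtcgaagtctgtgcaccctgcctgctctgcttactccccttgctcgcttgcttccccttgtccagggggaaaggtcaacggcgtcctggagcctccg
Kcnab1: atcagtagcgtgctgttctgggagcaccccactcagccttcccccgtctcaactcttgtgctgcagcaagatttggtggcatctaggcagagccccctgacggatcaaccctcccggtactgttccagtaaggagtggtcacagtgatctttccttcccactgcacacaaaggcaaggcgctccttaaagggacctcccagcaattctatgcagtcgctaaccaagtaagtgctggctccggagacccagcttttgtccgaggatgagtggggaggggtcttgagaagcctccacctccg
Kcnt2: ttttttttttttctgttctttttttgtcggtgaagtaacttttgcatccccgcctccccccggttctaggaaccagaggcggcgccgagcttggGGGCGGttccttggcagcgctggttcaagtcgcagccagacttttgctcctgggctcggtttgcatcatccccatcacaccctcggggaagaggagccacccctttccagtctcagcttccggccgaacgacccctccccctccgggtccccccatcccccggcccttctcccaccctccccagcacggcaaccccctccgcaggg
Kcnq5 held 2 adjoining GC boxes, on the opposite strand, Kcnt2 held 1, and Kcne5 and Kcnab1 held 0. Also searched on both strands were the AP-2 motif GCCNNNGGC, the TATA box TATAAA and the CArG box, and none of the 4 windows held any of them. Of 33469 RefSeq windows of the same length, 33.1% held a GC box, 15.1% an AP-2 match, 14.2% a TATA box and 1.64% a CArG box. Windows were found for 54 of the 79 genes (60 windows), of which 50% held a GC box, 25% an AP-2 match, 3.33% a TATA box and 0 a CArG box. The GC content of the 4 windows was 68.3% for Kcnq5, 67% for Kcne5, 56.7% for Kcnab1 and 62.3% for Kcnt2. A match is a run of letters and no measured site, and Kcnq1 and Kcnk6 are not shown.

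Among leak channels and channels gated by calcium or sodium, Kcnk6 and Kcnt2 were lower in DA and Kcnn3 was higher. Kcnk6, a tandem-pore channel gene, had 8.34 and 8.21 in BN DA, against 8.93 and 9 in BN aorta, and 8.16 and 8.36 in F344 DA, against 8.92 and 9.18 in F344 aorta (Entrez 116491). All DA arrays lay below all aorta arrays, and the averaged difference was -0.74 ± 0.10, a 1.67-fold lower signal (SE, limma adjusted p = 0.00143). In BN it fell by 0.69 ± 0.14 (adjusted p = 0.0437) and in F344 by 0.79 ± 0.14 (adjusted p = 0.00652). The F344 call was lost without F344 DA replicate 1 or F344 aorta replicate 2 (adjusted p = 0.0546 and 0.0643, lowest and highest), and the BN call without any single array other than BN DA replicate 1 (0.0729 to 0.224).

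Kcnt2, which encodes a sodium-activated channel, had 8.08 and 8.44 in BN DA, against 8.78 and 8.77 in BN aorta, and 7.79 and 7.79 in F344 DA, against 8.18 and 8.39 in F344 aorta. Its difference was -0.50 ± 0.10 with the strains averaged (SE, limma adjusted p = 0.0108, and 0.054 without F344 aorta replicate 2), and neither strain alone was called (-0.51 ± 0.15 in BN and -0.49 ± 0.15 in F344). The small-conductance calcium-activated channel gene Kcnn3, known from endothelium and smooth muscle, had 8.45 and 8.14 in BN DA, against 8.02 and 7.95 in BN aorta, and 8.28 and 8.32 in F344 DA, against 8 and 7.84 in F344 aorta. Each DA array exceeded each aorta array by a small margin, and the averaged difference was 0.34 ± 0.10 (SE, limma adjusted p = 0.0436). That call was lost without any single array other than BN DA replicate 2 (adjusted p between 0.0738 and 0.163).

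Scaling of the arrays mattered for some of the genes that fell. The averaged calls of Kcnt2 and Kcnmb4 were lost after repeated quantile normalization (limma adjusted p = 0.053 and 0.09), cyclic loess (0.061 and 0.0951) and centring on brighter genes (0.0604 and 0.281). The same 3 scalings ended the calls of Kcnab1 in F344 (0.0698, 0.0969 and 0.0871) and in BN (0.086, 0.0848 and 0.113) and of Kcnk6 in BN (0.0651, 0.0593 and 0.0827). All 4 BN calls were lost in a fit with the 4 BN arrays alone.

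**Figure D2:**
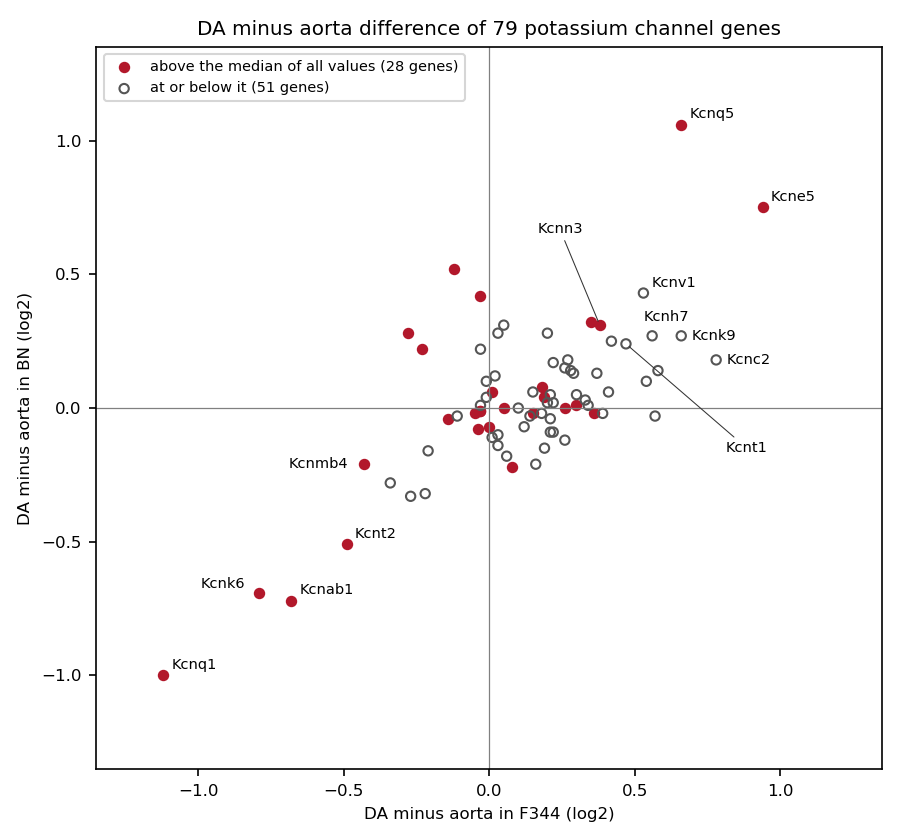
DA minus aorta difference (log2) in F344 on the horizontal axis and in BN on the vertical axis for the 79 channel genes, bright genes as filled and dimmer genes as open circles, with the 13 genes called in the averaged comparison named. Kcnq1, Kcnk6, Kcnab1, Kcnt2 and Kcnmb4 lie at lower left and Kcnq5, Kcne5 and Kcnn3 at upper right, and the dimmer named genes lie to the right of 0.

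Markers of other cell types also differed between the vessels. Endothelial markers (7 measured) had means of 9.2 and 8.98 in BN DA, against 9.02 and 9.08 in BN aorta, and of 8.62 and 8.54 in F344 DA, against 9.21 and 9.16 in F344 aorta, with 4 of 7 called lower in F344 DA and 0 called in BN (limma). Macrophage markers (6 measured) had means of 7.38 and 7.87 in BN DA, against 8 and 8.06 in BN aorta, and of 7.16 and 7.14 in F344 DA, against 7.7 and 7.52 in F344 aorta. Their mean was thus lower in DA in both strains, with 2 of the 6 called lower in F344 DA and 0 called in BN (limma). Smooth muscle markers (8 measured) had means of 11.73 and 11.52 in BN DA, against 11.49 and 11.27 in BN aorta, and of 11.83 and 11.67 in F344 DA, against 11.38 and 11.33 in F344 aorta. Of these, 2 were called higher in F344 DA (Des and Cnn1) and 0 were called in BN (limma). In F344 Des differed most, by 1.38, against 0.48 for Cnn1, 0.13 for Acta2 and 0.03 for Smtn. Adventitial fibroblast markers (6 measured) had means of 9.99 and 9.93 in BN DA, against 10.2 and 10.07 in BN aorta, and of 9.88 and 9.73 in F344 DA, against 10.17 and 10.04 in F344 aorta, with 2 called lower in BN DA and 3 lower and 1 higher in F344 DA (limma). Pericyte markers (5 measured) had means of 10.84 and 10.58 in BN DA, against 10.43 and 10.42 in BN aorta, and of 11.25 and 11.17 in F344 DA, against 10.69 and 10.66 in F344 aorta. Their mean was thus higher in DA in both strains, with 3 of the 5 called higher in F344 DA and 1 in BN DA (limma). The pericyte list holds Abcc9 and Kcnj8, which encode potassium channel subunits and are named below, so its mean is not separate from the channel genes. The part of these cell types in the channel gene differences was not tested.

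Within F344, 5 bright channel genes were called, the 2 that rose (Kcne5 and Kcnq5) and 3 that fell (Kcnq1, Kcnk6 and Kcnab1), or 17.9%, against 10% of all bright genes, of which 2.13% rose and 7.89% fell. Within BN, Kcnq5 rose and the same 3 genes fell, 4 of 28 or 14.3%, against 2.01% of all bright genes, of which 0.799% rose and 1.21% fell. In each strain Kcnq5 was above the median in DA only, so both shares are partly set by how bright genes were chosen. Over all 79 genes the counts were 9 higher and 3 lower in F344 (15.2%, against 14% of all genes, 8.87% higher and 5.12% lower) and 1 higher and 3 lower in BN (5.06%, against 1.81%, 0.986% higher and 0.82% lower). The F344 and BN comparisons share no arrays, but they share the estimate of each gene's spread, so a gene of low spread is called more easily in both.

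The dimmer genes moved with dim genes at large. In F344, 7 of the 51 dimmer channel genes rose in DA (Kcnc2, Kcnk9, Kcnj10, Kcnh7, Kcnh8, Kcnv1 and Kcnt1) and 0 fell, or 13.7%, against 18.4% higher and 1.18% lower among all 6000 dimmer genes. Their median difference was 0.21, against 0.20 over all dimmer genes and 0.79 over 1283 chemosensory receptor genes, a class whose median lay below that of all values on each array. In BN 0 of the 51 were called in limma (3 had an unadjusted p under 0.05), against 1.52% of all dimmer genes, with a median difference of 0.03, against 0.06. The largest difference was that of Kcnc2, a fast Kv channel gene known from neurons, with 5.91 and 5.85 in F344 DA, against 5.07 and 5.12 in F344 aorta (0.78 ± 0.12 SE, limma adjusted p = 0.00405), and 5.41 and 5.56 in BN DA, against 5.23 and 5.38 in BN aorta. Kcnk9, a tandem-pore leak channel gene, had 6.67 and 6.88 in F344 DA, against 6.13 and 6.11 in F344 aorta (0.66 ± 0.14 SE, limma adjusted p = 0.0147). The glial inward rectifier gene Kcnj10 differed by 0.57, the ERG-related gene Kcnh7 by 0.56, the ELK gene Kcnh8 by 0.54, the modifier subunit gene Kcnv1 by 0.53 and the sodium-activated channel gene Kcnt1 by 0.47.

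All 7 of these genes stayed below the median of all values in F344 DA, the group where they were highest. After cyclic loess and after a repeated quantile normalization, the median of the dimmer channel genes in F344 was -0.01 and -0.09. Over all dimmer genes it was 0 and -0.05, and over the chemosensory receptor genes 0.50 and 0.48. These scalings make the arrays alike in distribution, so a median near 0 over dim genes is partly set by the method. Under both scalings the calls of Kcnj10, Kcnh7, Kcnh8, Kcnv1 and Kcnt1 were lost, while Kcnc2 and Kcnk9 stayed called in F344. With the strains averaged, 5 of the 7 were called (Kcnc2, Kcnk9, Kcnv1, Kcnh7 and Kcnt1), or 9.80% of the dimmer channel genes, against 20% higher and 1.68% lower among all dimmer genes. After repeated quantile normalization and cyclic loess the averaged calls of Kcnc2 (limma adjusted p = 0.108 and 0.0502), Kcnv1 (0.121 and 0.0684), Kcnh7 (0.48 and 0.305) and Kcnt1 (0.327 and 0.218) were lost. Leaving out single arrays ended the averaged call of Kcnk9 in 3 cases (F344 DA replicate 2, F344 aorta replicate 2 and BN aorta replicate 1) with adjusted p between 0.0508 and 0.0606. It ended that of Kcnv1 without F344 DA replicate 1, F344 aorta replicate 2 or BN aorta replicate 1 (0.0614 to 0.0689), that of Kcnh7 without F344 DA replicate 2, F344 aorta replicate 2 or either BN aorta array (0.0691 to 0.119), and that of Kcnt1 without F344 DA replicate 1 or any 1 aorta array (0.071 to 0.106). The F344 call of Kcnc2 held whichever single array was left out, and that of Kcnk9 was lost without F344 DA replicate 2 or either F344 aorta array (adjusted p between 0.092 and 0.128). Each of the other 5 F344 calls was lost without any 1 of the F344 arrays (adjusted p of up to 0.263), and those of Kcnh7, Kcnt1 and Kcnv1 also without either BN aorta array, which enters only the estimate of spread. The neuronal markers (8 measured), which were all dim, had means of 6.07 and 6.29 in BN DA, against 5.91 and 6.22 in BN aorta, and of 6.22 and 6.24 in F344 DA, against 5.97 and 6.09 in F344 aorta, and 0 were called. Their part was not tested.

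**Figure D3:**
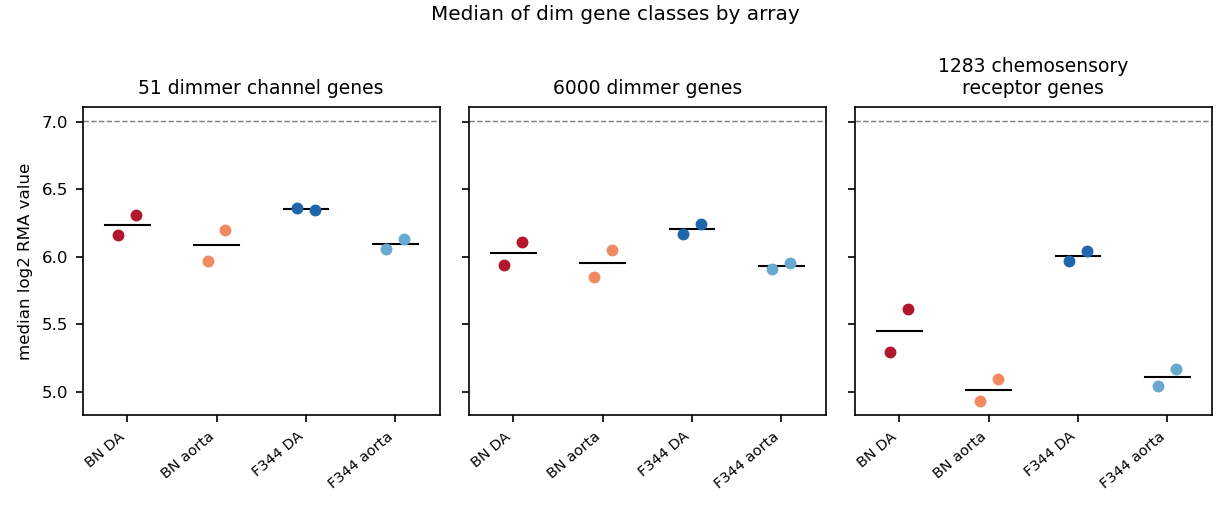
Median log2 RMA value on each array (points) and mean of the 2 arrays (line) for the 51 dimmer channel genes, all 6000 dimmer genes and 1283 chemosensory receptor genes, with the median of all values dashed. The F344 DA arrays hold the highest medians of each class, 6.36 and 6.35 for the channel genes, against 6.06 and 6.13 in F344 aorta.

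The strains were compared within each vessel and with the vessels averaged. In DA, 2 of the 79 genes rose in BN, Kcnq5 and Kcnip3, and 0 fell (2.53%, against 4.53% of all genes, 2.43% higher and 2.1% lower). Both are bright, and 7.14% of the bright channel genes were called, against 4.44% of all bright genes. Kcnq5 is bright only through its DA arrays, which were highest in BN, so this share is partly set by how bright genes were chosen. Kcnip3 encodes a calcium-binding protein that is an auxiliary subunit of Kv channels and also a transcriptional repressor. It had 8.2 and 8.23 in BN DA, against 7.62 and 7.67 in F344 DA (0.57 ± 0.12 SE, limma adjusted p = 0.0309), and 8.02 and 7.96 in BN aorta, against 7.94 and 7.81 in F344 aorta (0.12 ± 0.12). The strains did not overlap in either vessel, and only the DA difference was called. Kcnq5 was 0.60 ± 0.13 higher in BN DA than in F344 DA (SE, limma adjusted p = 0.0331), and in aorta the difference was 0.20 ± 0.13. Both calls were lost without any 1 of the 4 F344 arrays, and that of Kcnq5 also without BN DA replicate 2 (adjusted p between 0.0575 and 0.189 for Kcnq5 and between 0.0629 and 0.178 for Kcnip3). Kcnip3 was also lost after repeated quantile normalization, cyclic loess and centring on brighter genes (limma adjusted p = 0.055, 0.0672 and 0.0902), and both genes in a fit with the 4 DA arrays alone (0.109 for Kcnip3 and 0.103 for Kcnq5). Kcnq5 was lost after centring on brighter genes (0.107).

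In aorta 0 of the 79 genes were called between strains in limma, against 0.159% of all genes called by the same rule. At an unadjusted p under 0.05 there were 2 of the 79, and the share of all genes at that threshold is not given here. These 2 genes, Kcnab1 and Kcnt2, were the channel genes called with the vessels averaged (2.53%, against 2.65% of all genes), and both were higher in BN. Kcnab1 differed by 0.57 ± 0.15 in DA and 0.61 ± 0.15 in aorta, and by 0.59 ± 0.10 on average (SE, limma adjusted p = 0.0247), with the strains apart on every array within each vessel. Kcnt2 differed by 0.47 ± 0.15 in DA, 0.49 ± 0.15 in aorta and 0.48 ± 0.10 on average (SE, limma adjusted p = 0.0483). Both calls were lost without any single array of F344 or of BN aorta (adjusted p between 0.0765 and 0.109 for Kcnab1 and between 0.116 and 0.168 for Kcnt2), and after centring on brighter genes (0.0696 and 0.113), and that of Kcnt2 also after repeated quantile normalization and cyclic loess. The mean of the macrophage markers, given above by array, was also higher in BN than in F344 in each vessel. Of the 6 measured, 0 were called between strains in either vessel and 1 with the vessels averaged (limma). Their part was not tested.

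The interaction of vessel and strain asks whether DA minus aorta differed between BN and F344, and limma called 0 of the 79 genes and 0.0% of all genes. Among the 79 genes the smallest adjusted p was 0.349, and 3 had an unadjusted p under 0.05 (Kcnc2, Kcnip3 and Kcnj10), against 9.67% of all genes. Kcnip3 was higher in DA than in aorta in BN by 0.22 ± 0.12 and lower in F344 by -0.23 ± 0.12, without overlap of arrays in either strain, and its interaction was 0.45 ± 0.17 (SE, limma adjusted p = 0.447). Without BN DA replicate 1 or replicate 2 it was 0.46 and 0.44 (adjusted p = 0.402 and 0.27). Of the bright genes called between the vessels, Kcnq5 had an interaction of 0.40 ± 0.18 (unadjusted p = 0.0506 in limma), Kcnmb4 0.22 ± 0.18, Kcnq1 0.12 ± 0.20, Kcnk6 0.10 ± 0.20, Kcnt2 -0.03 ± 0.21, Kcnab1 -0.04 ± 0.21, Kcnn3 -0.07 ± 0.20 and Kcne5 -0.19 ± 0.22.

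Other bright genes were called in none of the 7 comparisons. The acid-sensitive leak channel gene Kcnk3, known from smooth muscle of the lung circulation, ranged from 8.60 to 9.41 over the 8 arrays, and the averaged DA minus aorta difference was 0.20. The ERG channel gene Kcnh2 ranged from 8.05 to 8.52 (-0.04), the auxiliary gene Kcne4 from 8.29 to 8.84 (0.17), the Kv gene Kcnd1 from 7.80 to 8.05 (-0.02) and the inward rectifier gene Kcnj12 from 7.72 to 8.19 (0.06). Among the Kv genes Kcnd3 had 7.19 and 7 in BN DA, against 7.53 and 7.37 in F344 DA (-0.36 ± 0.13 SE, limma adjusted p = 0.132), and Kcna3, known from lymphocytes and proliferating smooth muscle, ranged from 7.40 to 7.76. The modifier genes Kcng1, Kcng2 and Kcng4 ranged from 6.84 to 8.09, and Kcnv2 had an averaged difference of 0.33 ± 0.11 (limma adjusted p = 0.0765). The remaining bright genes, Kcna2, Kcnj14, Kcnk12, Kcnk13, Kcnk18 and Kcnn1, lay between 6.75 and 7.67 on all arrays.

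Some channel genes differed between the BN DA arrays themselves. In BN DA 5 of the 79 genes lay at least 0.5 apart on the log2 scale, against 3 in BN aorta and 0 in F344 DA and F344 aorta. This was 6.33% of the channel genes in BN DA, against 13.1% of all genes, and 3.8% in BN aorta, against 5.27%. Of all genes 3.14% lay this far apart in F344 DA and 2.09% in F344 aorta. With so few channel genes this far apart in any group, no trait of the channel genes is read from these shares. The 5 in BN DA were Kcnn4, Kcne3, Kcnd2, Kcnj3 and the Kv gene Kcna4, which had 5.64 and 6.33 on BN DA replicates 1 and 2. Kcnn4, the intermediate-conductance calcium-activated channel gene of lymphocytes and other cells, had 8.03 on BN DA replicate 1 and 7.38 on replicate 2, and 7.18 to 7.54 on the other 6 arrays. Kcne3 had 7.75 and 6.93 on those arrays and 6.69 to 7.32 on the others. Both were high on the array where lymphocyte markers were high. The mean of the erythroid markers was also highest on this array, at 10.48, against 8.07 to 9.82 on the others. On BN DA replicates 1 and 2 Rag1 had 8.2 and 5.83, Cd3g 6.84 and 4.77 and Cd3e 7.08 and 5.91. Lck had 7.18 and 6.2 and Ptprc 7.36 and 6.42, while Cd79b did not follow, at 7.12 and 7.2. Kcna3, a channel gene also known from lymphocytes, did not follow either, at 7.5 and 7.65 on BN DA replicates 1 and 2. Kcnd2 and Kcnj3, genes of a transient outward and a G protein-gated channel of heart and neurons, were higher on BN DA replicate 2 than on replicate 1, at 6.68 and 7.64 and at 5.93 and 6.77. On the other 6 arrays Kcnd2 had 6.38 to 7.10, highest on BN aorta replicate 2. Kcnj3 had 5.92 to 6.58 on them, highest in F344 DA (6.48 and 6.58). Cardiomyocyte markers (8 measured) had means of 6.9 and 7.36 on the BN DA arrays and of 6.65 to 6.91 on the others, with Tnnt2 at 7.47 and 9.24 and Actc1 at 7.98 and 9.71 on BN DA replicates 1 and 2. The other 6 markers did not share that step, with Ryr2 at 7.36 and 7.51, Myl7 at 7.04 and 7.02, Myh6 at 6.52 and 6.51, Myh7 at 6.49 and 6.44, Tnni3 at 6.31 and 6.29 and Nppa at 6.06 and 6.17. Neuronal markers (8 measured) had means of 6.07 and 6.29 on the BN DA arrays and of 5.91 to 6.24 on the others. Stmn2 had the largest step (6.08 and 6.76), while Tubb3 and Prph were lower on BN DA replicate 2. None of Kcnn4, Kcne3, Kcnd2 and Kcnj3 was called in any comparison, and the part of these cell types was not tested.

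**Figure D4:**
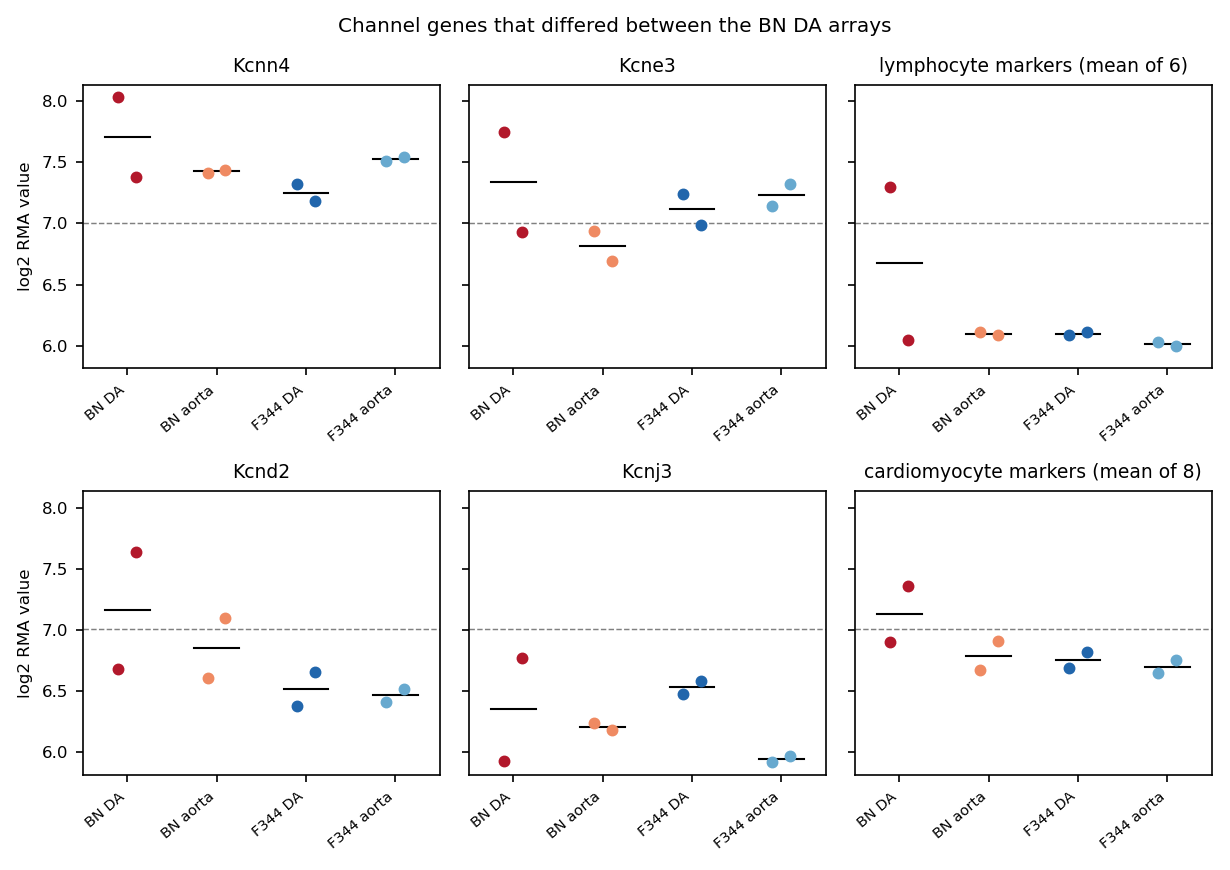
Log2 RMA value on each array (points) and mean of the 2 arrays (line) for Kcnn4, Kcne3, Kcnd2 and Kcnj3, beside the mean of the lymphocyte and cardiomyocyte markers, with the median of all values dashed; the left point of each pair is replicate 1. Kcnn4 and Kcne3 are highest on BN DA replicate 1, at 8.03 and 7.75, and Kcnd2 and Kcnj3 on BN DA replicate 2, at 7.64 and 6.77.

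Partners of potassium channels without a Kcn symbol were read from a list of 11 genes, all measured and 5 of them bright. In F344 3 were called higher in DA (Abcc9, Akap5 and Lrrc52) and 2 lower (Dpp6 and Lrrc55), with a list median of 0.21, and in BN 0 were higher and 1, Dpp6, was lower, with a median of -0.05. The median over all genes was -0.04 in F344 and 0 in BN, and of all genes 8.87% were called higher and 5.12% lower in F344, and 0.986% higher and 0.82% lower in BN. Dpp6, which encodes an auxiliary subunit of Kv channels of the Kcnd genes, had 6.59 and 6.15 in BN DA, against 7.52 and 7.13 in BN aorta, and 6.58 and 6.49 in F344 DA, against 7.77 and 7.81 in F344 aorta. Dpp6 was dim by its mean of 7, above the median of all values in both aorta groups and below it in both DA groups. It was lower in DA by -1.10 ± 0.13 with the strains averaged (SE, limma adjusted p = 0.000778), and the BN call was lost without BN DA replicate 2 (0.0593). Akap5, a gene of an anchoring protein for kinases, had 8.10 and 7.90 in F344 DA, against 6.89 and 6.88 in F344 aorta (1.12 ± 0.14 SE, limma adjusted p = 0.00187), and fell in BN DA relative to F344 DA by 0.88 ± 0.14 (adjusted p = 0.0174). Lrrc55, of the gamma subunits of large-conductance channels, was dim and differed by -1.29 ± 0.22 in F344 (adjusted p = 0.00578). Of the sulfonylurea receptor genes Abcc8 was higher in BN DA than in F344 DA by 0.66 ± 0.14 (limma adjusted p = 0.0317) and Abcc9 was lower by -0.93 ± 0.20 (0.0343). The Abcc8 call was lost without BN DA replicate 1 (0.53, adjusted p = 0.0674), and Abcc9 differed by -1.27 without replicate 1 and by -0.58 without replicate 2. Akap5 differed by -1 without replicate 1 and by -0.76 without replicate 2, and both genes stayed called.

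The 4 vascular channel genes set aside were all bright. In the same fit, BN DA minus F344 DA was 1.15 for Kcna5, 0.85 for Kcnma1, 1.18 for Kcnmb1 and -0.83 for Kcnj8, each called by limma (adjusted p = 0.0232, 0.0276, 0.00818 and 0.0368), where Kcnq5 and Kcnip3 were the called genes of the other 79. Without BN DA replicate 1 or replicate 2 the differences were 1.53 and 0.76 for Kcna5, 1.08 and 0.63 for Kcnma1, 1.23 and 1.13 for Kcnmb1 and -0.87 and -0.78 for Kcnj8, and the Kcnj8 call was lost without replicate 2 (adjusted p = 0.0539).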

How the data were processed

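Total RNA (150 ng, biotin-labelled, per the labels) from 8 pooled samples was hybridised to 1-colour arrays. The authors deposited log2 values of 29215 probe sets, normalized with RMA per the submitters' processing notes, with version, settings and annotation build not given in the sources used here. That the scale is log2 was taken from the range of the deposited values (1.07 to 14.2). The values were used as deposited, and precision is limited by the number of arrays. The platform annotation gave 1 symbol for 15310 probe sets, several for 323 and none for 13582, which are unnamed here. The brightest probe set of each gene was kept (14506 genes, 527 with several probe sets, among them Kcnip1 and Kcnip2).

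Limma (version 3.58.1, R version 4.3.3) was fitted once to all 8 arrays, with 4 group means (4 residual and 5.25 prior degrees of freedom), with 7 two-sided contrasts and Benjamini-Hochberg adjustment over all genes. The fit was tested on simulated data. The gene family, the lists and the alternatives were chosen with earlier results of these data known. Bright genes called in any comparison were named with values, other bright genes by range, and of the dimmer genes those called with the largest differences, with Kcnn4, Kcne3, Kcnd2 and Kcnj3 singled out after their values were seen. Alternatives were cyclic loess, repeated quantile normalization, centring on brighter genes, robust moderation, a mean-variance trend, averaging of probe sets, a fit without dim genes, the replicate number as a block, fits of the 4 arrays compared, and each array left out. Promoter windows came from RefSeq (GRCr8).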

Additional observations from a re-analysis of the deposited data

How the results depend on the processing

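No call of a channel gene reversed. The 33 calls reported over the 7 comparisons were recomputed under up to 17 alternatives, giving 534 values, of which 380 stayed called in the same direction, 154 kept the direction and lost the call, and 0 reversed. Of the 12 calls of dimmer genes, 3 held under cyclic loess and 3 under repeated quantile normalization, and of the 21 calls of bright genes 14 held under each. For DA minus aorta in F344, 12 genes were called, and 5 without dim genes, where only bright genes were tested. For DA minus aorta in BN, 4 were called, and 2 after repeated quantile normalization, 2 after cyclic loess, 2 after centring on brighter genes and 0 in a fit with the 4 BN arrays. For BN minus F344 in DA, 2 were called, and 1 after repeated quantile normalization, 1 after cyclic loess, 0 after centring on brighter genes, 4 with the replicate block and 0 with the 4 DA arrays. For DA minus aorta averaged, 13 were called, and 8 without dim genes. For BN minus F344 averaged, 2 were called, and 4 without dim genes, 1 after repeated quantile normalization, 0 after centring on brighter genes and 4 with the replicate block. Leaving out each array in turn gave 3 to 15 called genes for DA minus aorta in F344, 0 to 5 in BN, 6 to 15 averaged, 0 to 5 for BN minus F344 in DA and 0 to 4 averaged. The F344 count moved over 1.5 times without any 1 of the F344 arrays (3 to 5 called), the BN count without any F344 array or either BN aorta array (0 to 2) and the averaged DA minus aorta count without F344 aorta replicate 2 (6) or BN aorta replicate 1 (7). For BN minus F344 the DA count moved without any F344 array (0), BN DA replicate 1 (5) or BN DA replicate 2 (4), and the averaged count without any F344 or BN aorta array (0) or without BN DA replicate 1 (4). BN minus F344 in aorta and the interaction had 0 called genes under all alternatives run. Where an array was left out, fewer samples entered the fit. The cause of a lost call was not tested, either there or for the normalizations.

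Centring on brighter genes moved the median of all genes from -0.04 to 0.17 in F344, and the split of calls from 9 higher and 3 lower to 15 and 2, and for the averaged comparison from 8 and 5 to 14 and 3, while repeated quantile normalization gave 4 and 5 and cyclic loess 5 and 5. Groups share replicate numbers that no label ties to a litter or batch. The differences of replicate 1 minus replicate 2 correlated across genes between groups by 0.028 to 0.521, highest between BN DA and BN aorta and over 0.1 in 5 of 6 pairs of groups, and the erythroid markers were higher on replicate 1 in all 4 groups. With 2 numbers per group and no label on their meaning, this is a hint of a shared difference and does not establish the pairing. With the replicate block, in the other 5 comparisons the count of called genes stayed within 1.5 times the count without it.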

Other observations

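A probe set assigned to both Kcnk16 and Kcnk5 was left out of the counts because it names no single gene. It had 7 and 7.24 in BN DA, 6.97 and 7.28 in BN aorta, 6.98 and 7.19 in F344 DA and 7.04 and 6.96 in F344 aorta. Kcnip2 had 2 probe sets, of which the brighter had means over all arrays of 6.47 and the other of 6.33. On the brighter, the BN arrays lay between 6.58 and 6.74 and the F344 arrays between 6.15 and 6.46, and on the other the BN arrays lay between 6.26 and 6.40 and the F344 arrays between 6.25 and 6.42, so the probe sets differed in whether the strains overlapped.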
